A study of Homo sapiens with 42 samples.

Results

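The quantity described here is the polysome shift caused by quizartinib and everolimus together in stromal medium. For each culture and each gene it is the log2 level in heavy polysome RNA minus the log2 level in input RNA, and the shift is that difference in 3 combo cultures against 3 vehicle cultures. The members are the 12 libraries of these 6 cultures, of 42 libraries from 21 cultures in all, and input and polysome libraries with the same replicate number were paired. No measured value chose them, and every gene above the filter on low counts was tested.

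All cells were MOLM-13, an established acute myeloid leukemia line with FLT3-ITD, a tandem duplication that keeps the growth factor receptor FLT3 active, and with wild type given as the genotype. The 6 cultures were kept for 12 hours in hBMSC-CM, which is medium taken from cultures of HS-5, a line of human marrow stroma, and mixed with an equal part of RPMI, with DMSO as vehicle or with combo, which was 3 nM quizartinib (AC220, an inhibitor of FLT3) and 10 nM everolimus (an inhibitor of mTORC1). Input is poly(A) RNA of the whole lysate, and heavy polysome RNA is poly(A) RNA of the gradient fraction that holds messages with several ribosomes. The comparison asks which messages leave or enter heavy polysomes when both kinases are inhibited while stromal factors are present. Libraries of the same line in RPMI, a standard medium, and under either drug alone in hBMSC-CM are set beside it where they show a difference. MOLM-13 is 1 cell line and HS-5 is 1 stromal line, and the labels do not say whether the 3 cultures of a group were grown on separate days, so p-values measure the spread between these cultures.

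mTORC1 is the kinase complex through which nutrients and growth factors set the rate of protein synthesis. Messages of ribosomal proteins and of many translation factors begin with a cytosine followed by a run of pyrimidines, the 5′ terminal oligopyrimidine (5′TOP) motif, and their entry into polysomes is known to depend on mTORC1 through LARP1, which binds the capped motif, and through the eIF4E-binding proteins. A message held out of polysomes in this way can stay in the cell, so its level in input RNA may change little while its level in polysome RNA falls.

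The letters around the annotated start are given for members that the results turn on, some with and some without the motif there. Each line gives the last 15 bases before the RefSeq start and the first 15 bases of exon 1, 5′ to 3′ on the gene strand, from GRCh38.p14, and capitals mark a C-led run of C and T that begins exactly at that start. Shown first are ribosomal protein genes that fell, then those that fell with no such run at the annotated base. Other members of the 5′TOP list follow, of which EEF1B2 has no such run either, and last come 2 genes from other lists.
RPL21, chr13:27251543-27251572, plus strand: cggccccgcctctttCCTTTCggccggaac
RPL12, chr9:127451392-127451421, minus strand: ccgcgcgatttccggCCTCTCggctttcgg
RPS3, chr11:75399503-75399532, plus strand: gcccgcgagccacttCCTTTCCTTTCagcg
RPS19, chr19:41860240-41860269, plus strand: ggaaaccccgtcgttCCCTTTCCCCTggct
RPLP2, chr11:809952-809981, plus strand: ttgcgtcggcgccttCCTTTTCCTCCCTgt
RPS6, chr9:19380222-19380251, minus strand: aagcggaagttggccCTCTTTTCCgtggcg
RPL27, chr17:42998404-42998433, plus strand: ccggggtgaaaggttagcggaagtgtcctt
RPL32, chr3:12841551-12841580, minus strand: gggttacgacccatcagcccttgcgcgcca
EEF1B2, chr2:206159594-206159623, plus strand: gccggaagtggccccagcctcgaggccggg
TPT1, chr13:45341169-45341198, minus strand: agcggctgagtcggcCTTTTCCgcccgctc
EEF1A1, chr6:73521018-73521047, minus strand: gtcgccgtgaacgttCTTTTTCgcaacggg
EEF2, chr19:3985449-3985478, minus strand: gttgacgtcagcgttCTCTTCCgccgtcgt
NOP56, chr20:2652617-2652646, plus strand: gagcgcgctagccgcattgcgagccgaacc
ATP5MC1, chr17:48892772-48892801, plus strand: gaatggagaaggtccaggacacgtgggtgg

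The 12 libraries held 26.2 to 36.0 M counts each. Scaling factors of the trimmed mean of M-values (TMM), by which a library's size is corrected for composition, were 1.06 to 1.25 in input and 0.734 to 0.958 in polysome libraries. All 12 myeloid leukemia markers on the list, among them CD33, SPI1 and MPO, were detected in each group and fraction, meaning more than 3 counts over its 3 libraries. Of 22 stromal markers 11 to 15 were detected, and 6 to 11 had no count in a whole group of 3 libraries. Of 10 erythroid and lymphoid markers 3 to 5 were detected. CPM means counts per M counts (M, 1e+06). The marker sums in this paragraph use the library total without TMM factors, and the levels of single genes further below are TMM-scaled. Summed stromal markers were at 316 to 470 CPM in combo input, 282 to 389 in vehicle input, 345 to 653 in combo polysome and 290 to 433 in vehicle polysome libraries. Summed erythroid and lymphoid markers were at 98.2 to 199 CPM in combo and 70.6 to 134 CPM in vehicle input. In polysome libraries they were at 142 to 506 CPM in combo and 82.7 to 293 CPM in vehicle. Nuclear noncoding RNAs summed to 975 to 1300 CPM in combo and 464 to 706 CPM in vehicle input, and to 92.8 to 205 CPM in combo and 47.1 to 84.9 CPM in vehicle polysome libraries, higher under combo without overlap in both fractions. Mitochondrially encoded transcripts are not translated on cytosolic polysomes. They took 7.57, 3.93 and 3.98% of counts in combo input and 7.05, 3.19 and 3.17% in vehicle input. In polysome libraries they took 0.506, 0.185 and 0.185% under combo and 0.282, 0.0734 and 0.122% under vehicle. The share was higher under combo at each replicate number in both fractions. Each library is scaled to its own total, so a change in the total amount of polysome RNA is not seen, and in bulk RNA fewer cells and less RNA per cell cannot be told apart. The part of these differences in the results was not tested.

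Messages of ribosomal proteins were depleted from heavy polysomes relative to input under combo, and of other coding genes only EEF1B2 passed the test with the culture block. Of 12939 genes tested, 53 (0.410%) had a lower polysome shift under combo and 0 a higher one, by edgeR's quasi-likelihood test with culture as a block and a Benjamini-Hochberg adjusted p under 0.05. Of the 53, 17 were among the 47 large-subunit protein genes, 15 among the 32 small-subunit protein genes and 1 was EEF1B2, a subunit of the factor that recharges the elongation factor eEF1A with GTP. The other 20 were rows annotated as pseudogenes. No protein-coding gene outside the ribosomal protein and 5′TOP lists was called, of 10707 tested. In simulated counts this test recovered 18.2% of true log2 shifts of -1, 47.1% of -1.5 and 21.2% of 1. The lack of a call therefore does not show that a gene had no shift. With the replicate number added as a block within each fraction, 107 genes (0.827%) were lower and 8 (0.0618%) higher, and all 53 were among the 107.

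The size of that count differed between fits. Fitted on the 12 libraries alone, 0 genes passed and 402 had an unadjusted p under 0.05, against 677 in the fit of all libraries, and with the culture block left out 3 genes passed. Without combo culture 1 the count was 25, without combo culture 3 it was 12, without vehicle culture 1 it was 33, and without vehicle culture 2 it was 6, all of them lower under combo.

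Across the 79 ribosomal protein genes, 78 shifts were negative and 42 were below -1 on the log2 scale. Of the 79, 32 were called (40.5%), and with the replicate block 52 (65.8%). The per-culture shifts of combo and vehicle did not overlap, with combo lower, for 55 of the 79 (69.6%), against 2.77% of all genes tested (5.16% had combo higher). The median shift was -1.06 over large-subunit and -0.96 over small-subunit genes, where the median of all genes was 0.15, so relative to all genes the medians were -1.22 and -1.11. The TMM-scaled levels of the 79 genes, summed in each library, were also lower in polysome RNA under combo than under vehicle. Each sum is given as a percent of the library size after TMM correction, not as a share of the library's own counts. The TMM factors were 1.06 to 1.25 in input and 0.734 to 0.958 in polysome libraries. The step from input to polysome RNA within a culture therefore depends on these factors, and the sums are compared between treatments within a fraction. Under vehicle the sum was 12.6, 11.3 and 19.1% in input and 14, 16.5 and 19.3% in polysome libraries 1 to 3. Under combo it was 15.2, 11.6 and 14.6% in input but 7.87, 8.48 and 7.16% in polysome RNA, so that the polysome sums of the 2 treatments did not overlap while the input sums did.

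**Figure D1:**
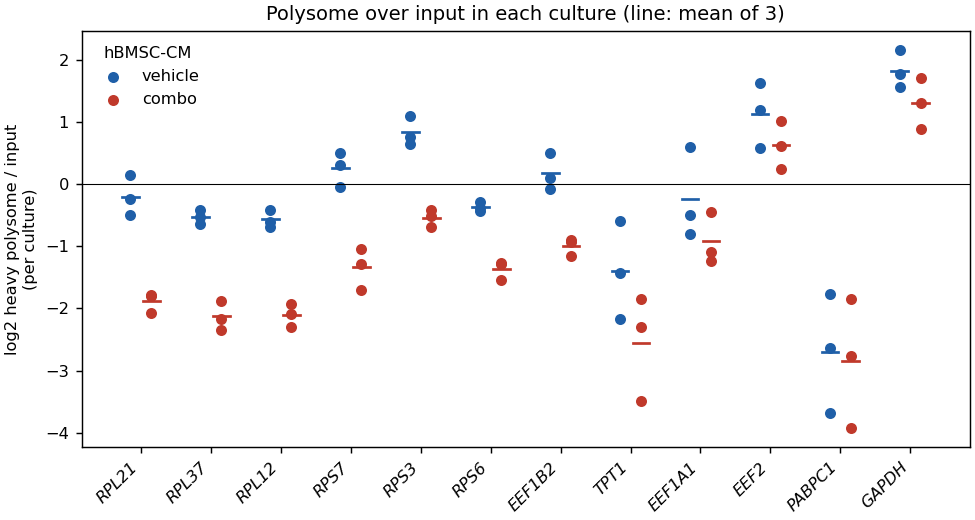
Log2 heavy polysome over input in each of the 3 vehicle (blue) and 3 combo (red) cultures in hBMSC-CM for 12 genes, with the mean of each group as a line. For RPL21, RPL37, RPL12, RPS7, RPS3, RPS6 and EEF1B2 every combo culture lies below every vehicle culture, while the points overlap for TPT1, EEF1A1, EEF2, PABPC1 and GAPDH.

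Among the large-subunit genes, RPL21 (chromosome 13, 27251362 to 27256691, plus strand) fell furthest. In combo its level went from 1652, 1275 and 1568 CPM in input to 477, 368 and 372 CPM in polysome RNA. In vehicle it went from 1443, 1314 and 2393 CPM to 1017, 1447 and 2027 CPM. Input levels overlapped between treatments, and all 3 combo polysome levels lay below all 3 vehicle ones. Per culture, polysome minus input was -1.79, -1.79 and -2.07 under combo and -0.50, 0.14 and -0.24 under vehicle, a shift of -1.68 (SE 0.24, adjusted p = 0.00403 by edgeR).

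RPL37 (chromosome 5, 40825262 to 40835222, minus strand) behaved alike, with -2.16, -1.88 and -2.34 under combo against -0.64, -0.41 and -0.52 under vehicle and a shift of -1.61 (SE 0.24, adjusted p = 0.00403 by edgeR). RPL12, part of the stalk base of the large subunit, had a shift of -1.54. Other called large-subunit genes included RPL8, RPL9, RPL10, RPL13, RPL15, RPL19, RPL24, RPL27, RPL27A, RPL28, RPL32, RPL35 and RPLP2, named like RPL12 after their values were seen, with shifts from -1.51 (RPL27) to -1.03 (RPL35).

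Among the small-subunit genes, RPS15A (chromosome 16, 18781295 to 18790383, minus strand) fell from 140, 133 and 175 CPM in combo input to 50.4, 39.4 and 35.9 CPM in combo polysome RNA. In vehicle it went from 118, 131 and 246 CPM to 99.6, 138 and 193 CPM. The polysome groups did not overlap, and the shift was -1.67 (SE 0.29, adjusted p = 0.00972 by edgeR). RPS7 had a shift of -1.60 and RPS3, which lies at the entry of the message channel, one of -1.37, both with an adjusted p of 0.00403 by edgeR and named after their values were seen. RPS3 differed in where it started, since its polysome over input was positive in vehicle (0.76, 1.09 and 0.65) and negative in combo (-0.51, -0.42 and -0.69).

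RPS6, the ribosomal protein phosphorylated by S6 kinase downstream of mTORC1, was the small-subunit gene on the fixed list. Its level was 4836, 3918 and 5058 CPM in combo input and 1976, 1632 and 1743 CPM in combo polysome RNA. In vehicle, input held 3986, 3654 and 6244 CPM and polysome RNA 3058, 2705 and 5135 CPM. All combo polysome values lay under all vehicle ones, and the shift was -0.998 (SE 0.19, adjusted p = 0.0156 by edgeR). RPS6 is among 27 of the 79 ribosomal protein genes (17 large, 10 small) that overlap an exon on the opposite strand, and since the strand setting of the counting is not given in the sources used here, reads of the 2 strands cannot be told apart in them.

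The members were not alike in size. The middle 50% of the 79 shifts ran from -1.20 to -0.75, and 8 genes were above -0.50. RPL41, with -1.27, -0.88 and -1.63 under combo and -0.96, -1.09 and -1.69 under vehicle, had a shift of -0.01 (SE 0.24), and its polysome level was already low in vehicle. RPS26 had a shift of -0.11 (SE 0.43), RPL22 -0.28 and RPL3 -0.50 (SE 0.24), with adjusted p from 0.944 to 1 by edgeR. RPL36A was the single member with a positive shift, 1.25 (SE 0.78), at 1.85 to 2.47 CPM in combo input and 0.331 to 0.654 CPM in combo polysome RNA, and its combo cultures lay above its vehicle cultures. These 5 were named after their values were seen. A mean below 10 CPM was found for 4 of the 79 genes, RPL36A among them, and of the 73 genes with at least 100 CPM 32 were called and the median was -1.06.

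Of 1157 pseudogene rows tested, 226 carry the name of a ribosomal protein gene, and 16 of the 20 called rows are among these. The rule for naming genes took in RPL21P11 (-1.89, SE 0.37), RPS15AP1 (-1.78, SE 0.33), RPL37P2 (-1.63, SE 0.31), RPS7P11 (-1.63, SE 0.30) and AL033519.2 (-2.004, SE 0.36), each with an adjusted p from 0.0125 to 0.0162 by edgeR. Rows of processed pseudogenes can be near-identical to an expressed gene and may hold its reads, which was not tested, so their values are uncertain and are not separate members. Without pseudogene rows 33 calls are left, and 66 with the replicate block.

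The split into fractions shows where the shift arose. In input RNA the ribosomal protein genes had median changes of -0.09 (large subunit) and -0.07 (small subunit) between combo and vehicle, and 2 of the 79 were called lower. In polysome RNA the medians were -1.18 and -1.10, and 72 of the 79 were called lower. Over all genes, 1955 (15.1%) were called lower and 1475 (11.4%) higher in input, and 1921 (14.8%) lower and 2551 (19.7%) higher in polysome RNA, by edgeR with 14 group means. With library size alone as the scale the polysome split was 1420 lower and 3535 higher, and with relative log expression factors 2150 lower and 2126 higher.

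**Figure D2:**
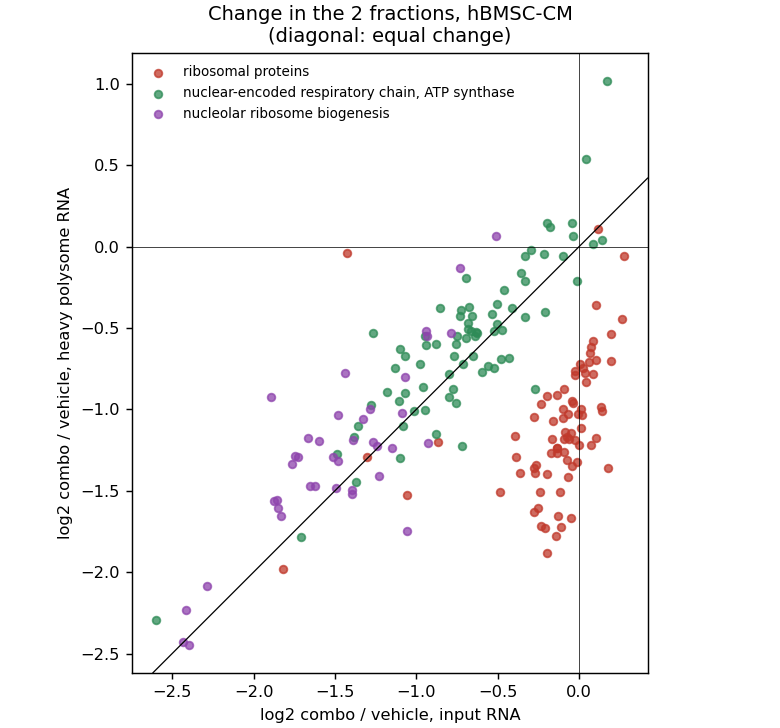
Log2 change between combo and vehicle in input RNA (horizontal axis) and in heavy polysome RNA (vertical axis) for each gene of 3 groups, where the diagonal marks an equal change in both fractions. Ribosomal protein genes (red) have median changes of -0.09 and -0.07 (large and small subunit) on the input axis and of -1.18 and -1.10 on the polysome axis, while respiratory chain and nucleolar genes (green and purple) lie near the diagonal.

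Beyond ribosomal proteins, the other 24 messages on the 5′TOP list had smaller shifts. Their median shift was -0.44, 23 of 24 were negative, and 3 had combo cultures all below vehicle, against 2.77% of all genes. With a culture left out the median ran from -0.78 to -0.31. EEF1B2 was the 1 called. It went from 843, 664 and 584 CPM in combo input to 379, 357 and 308 CPM in polysome RNA, and in vehicle from 763, 655 and 829 CPM to 724, 923 and 891 CPM. Its combo polysome values were all below the vehicle ones, and the shift was -1.17 (SE 0.24, adjusted p = 0.0284 by edgeR).

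TPT1, which encodes the translationally controlled tumor protein, shows how much the replicate number mattered. Polysome minus input was -2.30, -3.49 and -1.86 under combo and -1.44, -2.17 and -0.60 under vehicle, so combo was lower at every number although the groups overlap. The shift of -1.14 (SE 0.55) had an adjusted p of 0.953 by edgeR with the culture block and 0.0139 with the replicate block. TPT1 also overlaps an exon on the opposite strand.

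The elongation factors were not called. EEF1A1, which brings aminoacyl-tRNA to the ribosome, had -1.09, -1.24 and -0.45 under combo against -0.50, -0.81 and 0.59 under vehicle, a shift of -0.68 (SE 0.38). EEF2, which moves the ribosome along the message, had a shift of -0.51 (SE 0.30). PABPC1, the poly(A)-binding protein, had -2.76, -3.93 and -1.85 under combo and -2.64, -3.69 and -1.77 under vehicle, a shift of -0.15 (SE 0.67). The groups overlapped for all 3 genes, although EEF1A1 was lower under combo at every replicate number. Their adjusted p was 1 by edgeR, which does not show that they stayed alike. For EEF1A1 it was 0.201 with the replicate block and 0.0149 with that block and without the everolimus cultures, and its shift ran from -1.0001 to -0.32 with a culture left out.

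The annotated start bears on this split only in part. A C-led run of at least 5 pyrimidines beginning exactly at the RefSeq start was present in 43 of the 63 ribosomal protein genes with a start in the table (68.3%), in 14 of 17 other 5′TOP genes, in 5.8% of 8869 protein-coding genes tested and in 4.04% of all 27305 starts in the table, read on the gene strand. Ribosomal protein genes with the run had a median shift of -1.06 (16 of 43 called) and those without it -1.11 (10 of 20 called), so the run at the annotated base did not separate them. Annotated starts can be off by some bases, and a run beginning within 10 bases of the start was found in 88.9% of these genes but also in 33.6% of protein-coding genes tested.

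Among the genes outside both lists, 457 had the run and a median shift of 0.06 (middle 50% from -0.16 to 0.26), and 8332 lacked it and had a median of 0.17 (0.00 to 0.35). Of those with the run 189 (41.4%) were negative, against 24.7% of those without, and 0 of either were called with the culture block. The 168 genes with a run of 8 or more had a median of 0.04 and the 108 with a run of 5 had 0.12. These are descriptions across genes, which are not replicates.

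Ribosomal protein messages are short, with a median coding length of 453 nucleotides and at most 1281, and other genes of like length are set beside them. The 719 other genes with a coding length up to 453 nucleotides had a median shift of 0.14, and 6 (0.834%) had combo cultures all below vehicle. With the other genes cut by coding length into 4 groups of like size, the medians were 0.15, 0.14, 0.17 and 0.21 from the shortest to the longest. The same 4 groups in RPMI had medians of -0.13, 0.10, 0.30 and 0.62. The 87 other genes at or above 843 CPM, the lower quartile of the ribosomal protein genes, had a median of 0.17. The part of length and level in the ribosomal protein values was not tested.

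**Figure D3:**
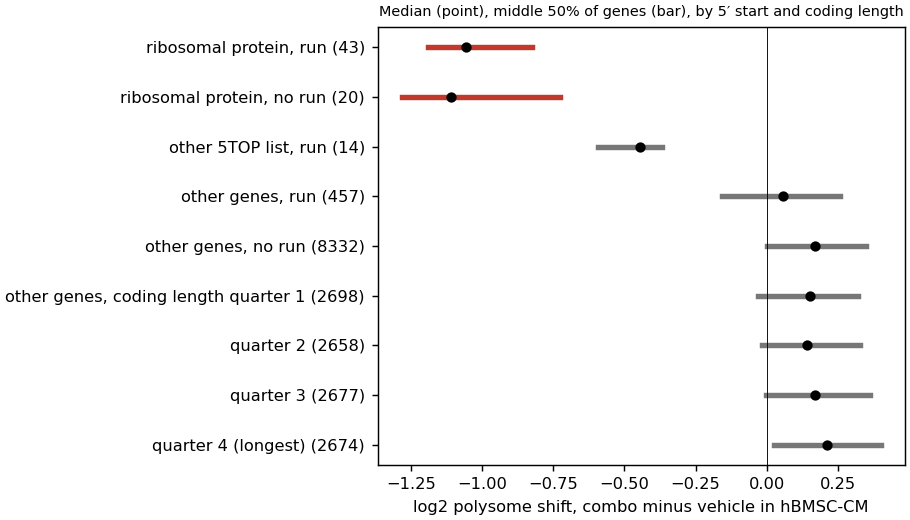
Polysome shift between combo and vehicle in hBMSC-CM on the log2 scale, with the median as a point and the middle 50% of genes as a bar, for genes grouped by a C-led pyrimidine run at the annotated start and by 4 groups of coding length (number of genes in brackets). The ribosomal protein bars span -1.19 to -0.82 with the run and -1.28 to -0.73 without it, and the bars of genes outside both lists lie between -0.16 and 0.40.

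The mTORC1 pathway itself and its translational regulators showed no call among 33 genes tested (median 0.16). LARP1 had a shift of 0.38 (SE 0.28), with a fall in input of 0.74 on the log2 scale (adjusted p = 0.00223 by edgeR) and a change in polysome RNA of -0.33 that was not called. EIF4EBP1, whose protein binds eIF4E when mTORC1 is inactive, went from 112, 83.1 and 161 CPM in vehicle input to 33.0, 33.5 and 44.97 CPM in combo input, with no overlap. In polysome RNA it went from 190, 176 and 201 CPM to 48.4, 80.3 and 60.8 CPM, so that the fall was alike in both fractions and the shift was 0.03 (SE 0.30). EIF4EBP2 (-0.07), EIF4E (-0.05), RPTOR (0.26) and MTOR (0.95, SE 0.54) were not called, and each had an adjusted p of 1 by edgeR.

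Of the messages of the respiratory chain, which makes most ATP in respiring cells, some were called lower in each fraction, and a larger share of them than of all genes (15.1% in input and 14.8% in polysome RNA). The median change in input was -0.70 over 34 complex I genes (17 called lower), -0.70 over 25 genes of complexes II to IV (12 lower) and -0.63 over 18 ATP synthase genes (6 lower). In polysome RNA the medians were -0.55 (15 lower), -0.61 (13 lower) and -0.58 (7 lower). The polysome shifts had medians of 0.14, 0.03 and 0.06 beside 0.15 for all genes, with 19 of 34, 18 of 25 and 13 of 18 genes below that value. With a culture left out these medians ran from -0.12 to 0.24, from -0.32 to 0.13 and from -0.27 to 0.32, where the median of all genes ran from 0.07 to 0.18, so their sign is not settled. Of these genes 0 passed with or without the replicate block, by edgeR.

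ATP5MC1, which encodes subunit c of the ATP synthase ring, went from 76.5, 88.9 and 155 CPM in vehicle input to 13.0, 17.1 and 22.7 CPM in combo input. In polysome RNA it went from 133, 269 and 218 CPM to 26.8, 63.1 and 36.9 CPM. Both fractions fell without overlap, with log2 changes of -2.6002 and -2.29, and the shift was 0.25 (SE 0.33, adjusted p = 1 by edgeR). CYCS, cytochrome c, fell by 1.71 in input and by 1.79 in polysome RNA, with a shift of -0.08 (SE 0.34). NDUFS8 of complex I had a shift of 0.15, COX5A of complex IV -0.19, IDH3A of the citric acid cycle 0.47 and the mitochondrial carrier UCP2 0.23, none of them called. Of the regulators of mitochondrial genes, YY1 had a shift of 0.41 and ESRRA -0.14, and PPARGC1A was below the filter with at most 30 counts in these libraries.

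Genes of ribosome assembly fell in a different way from the ribosomal proteins. Of 39 nucleolar biogenesis genes 36 were called lower in input (median -1.48), against 15.1% of all genes. In polysome RNA 33 were called lower (median -1.29), against 14.8% of all genes. The median shift was 0.20 with 0 calls by edgeR with the culture block. NOP56, a core protein of the box C/D snoRNA particles, had combo cultures all above vehicle. Polysome minus input was 1.04, 0.51 and 0.59 under combo and -0.05, -0.25 and -0.46 under vehicle, and the shift of 0.96 (SE 0.22) had an adjusted p of 0.0677 by edgeR with the culture block and 0.00555 with the replicate block. NOP56 was named after its values were seen. The mitochondrial ribosome, with 79 genes tested, had a median shift of 0.14 and the snoRNA host transcripts, 15 genes of which several are known to begin with a 5′TOP motif, a median of 0.14.

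The remaining lists held no call with the culture block. In the fit of all 42 libraries the median shifts were 0.24 for DNA replication (41 genes), 0.18 for aminoacyl-tRNA synthetases (20), 0.09 for the ATF4 and amino acid response (27), 0.08 for cholesterol synthesis (23), 0.09 for glycolysis (21), 0.18 for the proteasome (32) and 0.22 for lysosome and autophagy genes (30). The medians furthest above that of all genes, beside mitochondrially encoded and nuclear noncoding RNAs, were 0.42 for the interferon response (20), 0.39 for ERK feedback (13) and 0.28 for the NF-kB response (14). With a culture left out, DNA replication ran from 0.06 to 0.38, the synthetases from -0.06 to 0.28, cholesterol synthesis from -0.23 to 0.22, the proteasome from -0.04 to 0.34, lysosome genes from -0.02 to 0.27, the interferon response from 0.29 to 0.73, ERK feedback from 0.22 to 0.41 and NF-kB from 0.11 to 0.33. Growth and survival messages held to depend on eIF4E had a median of 0.16, with MYC at 0.41 (SE 0.30) and MCL1 at 0.24 (SE 0.25). PIM1, a kinase induced by STAT5, rose in input by 0.89 (adjusted p = 0.00336) and in polysome RNA by 1.23 (adjusted p = 8.91e-05), both by edgeR, and its shift was 0.34 (SE 0.26). ATF4, whose upstream reading frames govern its translation, had a shift of -0.10, FLT3 one of 0.32 and ATM one of 0.07, and none of these 3 was called.

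**Figure D4:**
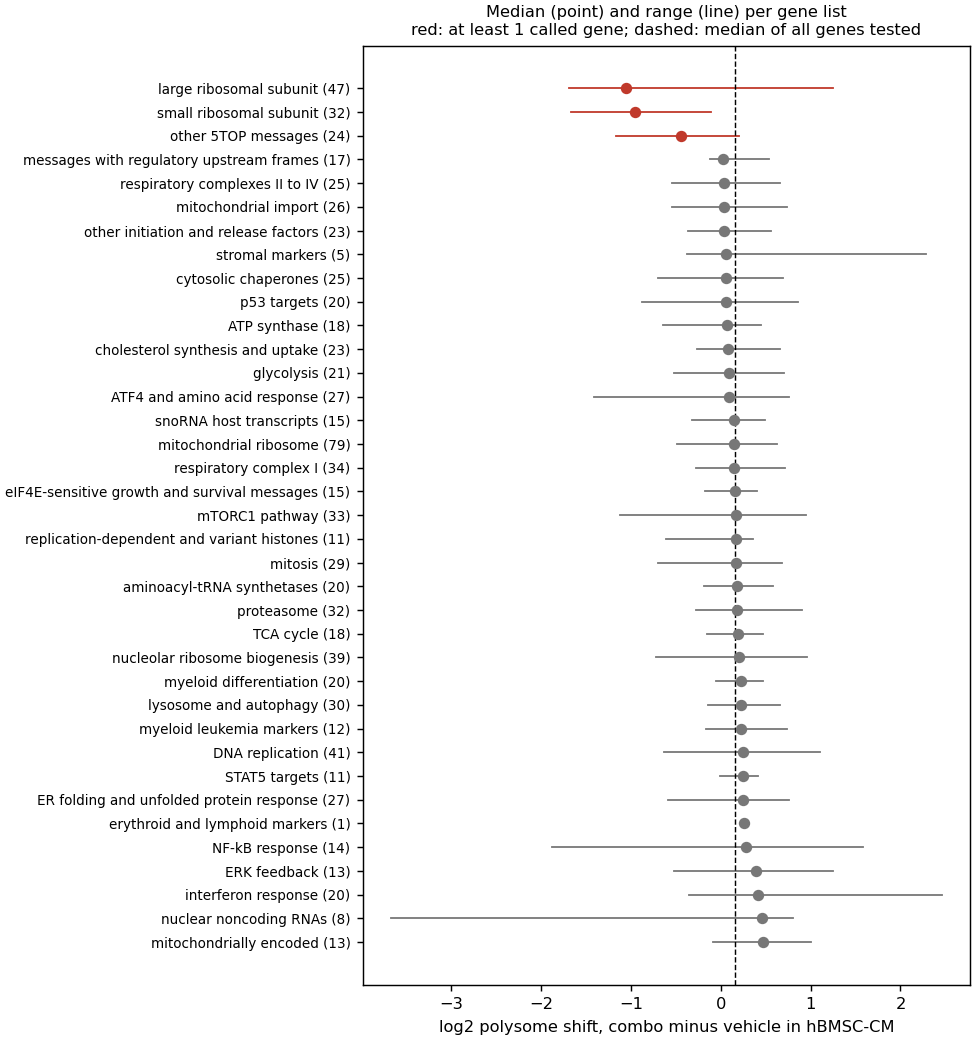
Median (point) and full range (line) of the log2 polysome shift between combo and vehicle in hBMSC-CM for each gene list, with the number of genes tested in brackets and the median of all genes, 0.15, as a dashed line. The 3 lists with a called gene (red) have medians of -1.06, -0.96 and -0.44, and the other lists (grey) have medians from 0.02 to 0.47.

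With the replicate block, 12 protein-coding genes outside the ribosomal protein and 5′TOP lists passed, all named after their values were seen. The 8 higher ones were NOP56, ACTN4, DCAF5, PLXDC2, USP42, SLC39A14, ZFP36L1 and AC091057.6. ZFP36L1, which binds AU-rich elements and promotes decay of messages, had -0.34, -1.05 and -0.57 under combo against -2.40, -2.98 and -1.74 under vehicle, a shift of 1.75 (SE 0.39, adjusted p = 0.0518 by edgeR and 0.0156 with the block). AC091057.6 had 0 counts in all 3 vehicle polysome libraries, so it is given no fold change. The 4 lower ones were NPM3, D2HGDH, OGT and SLC25A6. SLC25A6, an ADP/ATP carrier of the inner mitochondrial membrane, has a run of 6 pyrimidines at its annotated start and a shift of -0.92 (SE 0.25, adjusted p = 0.183 by edgeR and 0.00565 with the block).

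The same comparison in RPMI gave more calls and a larger fall. There 341 genes (2.64%) were lower and 223 (1.72%) higher under combo than under vehicle, and with the replicate block 709 (5.48%) and 1667 (12.9%). All 53 genes called in hBMSC-CM were among the 341, which is 100% of the first list and 15.5% of the second, and 69 of the 79 ribosomal protein genes were called. The RPMI total of 564 fell to 215 without combo culture 1, to 301 without combo culture 3, to 263 without vehicle culture 2 and to 275 without vehicle culture 3. List medians of the shift were -1.76 (large subunit) and -1.85 (small subunit) in RPMI beside -1.06 and -0.96 in hBMSC-CM. The difference between media was positive, that is a smaller fall in hBMSC-CM, for 77 of the 79, and its medians were 0.86 and 0.88. For RPL21 it was 0.88 (SE 0.34), with an adjusted p of 0.997 by edgeR. Tested gene by gene, 0 genes had a called difference between media, by edgeR with or without the replicate block and by DESeq2, and 453 genes had an unadjusted p under 0.05, 44 of them ribosomal protein genes.

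Each drug alone in hBMSC-CM gave smaller values. These contrasts share the 3 vehicle cultures with combo, so the values are set side by side. Over the large and the small subunit the median shifts were -0.43 and -0.41 under everolimus, -0.43 and -0.40 under quizartinib, and -1.06 and -0.96 under combo. RPL21 had -0.69, -0.64 and -1.68, RPS6 -0.53, -0.51 and -0.998 and EEF1B2 -0.29, -0.45 and -1.17 under everolimus, quizartinib and combo. With the culture block 0 of all 12939 genes were called under either single drug, by edgeR, and so none of the ribosomal protein genes. An unadjusted p under 0.05 was found for 736 of all genes under everolimus and 362 under quizartinib.

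The direct differences, which do not involve the vehicle cultures, pointed the same way, and none passed with the culture block. Combo minus everolimus was negative for 76 of the 79 and combo minus quizartinib for 78, with medians of -0.62 and -0.60 for the large and -0.60 and -0.59 for the small subunit. For RPL21 they were -0.9995 (SE 0.24, adjusted p = 0.306 by edgeR) and -1.05 (SE 0.24, adjusted p = 0.917 by edgeR). Over all genes 0 were called in either difference with the culture block, with 918 and 318 genes at an unadjusted p under 0.05, and DESeq2 called 52 and 13. With the replicate block 1 gene was called between combo and quizartinib. Between combo and everolimus that block gave 427 calls (380 higher, 47 lower), among them 16 large-subunit and 12 small-subunit genes, all lower, with an adjusted p of 0.0113 by edgeR for RPL21, but replicate numbers did not pair these 2 groups. Adjusted values of this size do not show that combo and a single drug act alike.

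**Figure D5:**
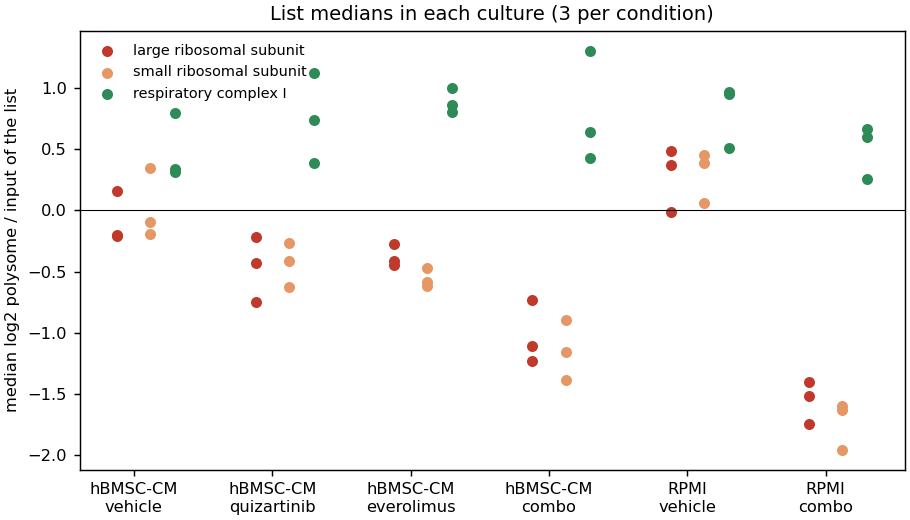
Median log2 polysome over input of the large-subunit (red), small-subunit (orange) and complex I genes (green) in each of 3 cultures per condition. The combo cultures in hBMSC-CM lie at -0.73 to -1.39 for the ribosomal lists, under vehicle, quizartinib and everolimus in the same medium in all but 1 case, where the large-subunit median of quizartinib culture 1 (-0.75) lies under that of combo culture 2 (-0.73), and above the RPMI combo cultures (-1.40 to -1.96).

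The list medians of each culture are set side by side, and everolimus and quizartinib had no fixed order. Over large-subunit genes, polysome minus input was -0.20, 0.16 and -0.21 in vehicle cultures 1 to 3, -0.41, -0.44 and -0.27 under everolimus, -0.75, -0.43 and -0.22 under quizartinib and -1.11, -0.73 and -1.23 under combo. Vehicle and everolimus did not overlap, everolimus and quizartinib did, and combo overlapped with quizartinib by a single culture. Over small-subunit genes the vehicle cultures had -0.10, 0.35 and -0.19 and the combo cultures -1.16, -0.90 and -1.39, with everolimus (-0.58, -0.62 and -0.47) and quizartinib (-0.63, -0.42 and -0.27) between them. For complex I genes the combo values 0.43, 1.30 and 0.64 and the vehicle values 0.31, 0.79 and 0.34 overlapped.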

How the data were processed

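Poly(A)-selected libraries were sequenced as pairs by the authors, who trimmed adapters with BBDuk, aligned them with STAR 2.6.0a to hg38 (Ensembl) and summed them by gene. What was deposited are raw counts without normalization, and the strand setting of the counting is not given in the sources used here. Rows sharing a gene name were summed, and 12939 genes with a mean of at least 1 count and 1 CPM (without TMM factors) over the 42 libraries were tested (99.8% of counts). Total counts were 26.2 to 36.0 M in the 12 libraries described. Reads carry no molecular identifiers. All 42 columns were matched by name and 0 were unused.

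The main test was edgeR 4.0.16 (R 4.3.3), a robust quasi-likelihood fit of all 42 libraries with TMM factors, a block per culture and polysome by condition terms (14 residual degrees of freedom), as the study used an interaction model with input. Input and polysome changes came from a fit of 14 group means. Per-culture values are log2 CPM with a prior count of 2. A gene was called when its p, adjusted after Benjamini and Hochberg, was under 0.05. Since input and polysome RNA come from the same culture, culture pairs them. Input and polysome deviations within a culture correlated at -0.044 to 0.303 across genes. Replicate numbers also paired treatments: deviations of combo and vehicle shifts with the same number correlated at 0.295, 0.511 and 0.488 across genes, so values with a replicate block within each fraction are given where they change a call. Combo and quizartinib correlated at 0.451 to 0.638, and combo and everolimus at -0.183 to 0.026.

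The test was checked on simulated data before use. Alternatives were limma 3.58.1 voom, DESeq2 1.42.0, other scalings and filters, fewer libraries and each culture left out. Gene positions are from GENCODE v44 (GRCh38, the same assembly but another release), and starts from RefSeq on GRCh38.p14. The 37 gene lists come from textbook knowledge. Named were 26 fixed genes, the 8 largest called rises and falls at 10 CPM or more on average whose cultures do not overlap, and the extreme called member of each list. The comparison, lists and rules were chosen with earlier results of these data known, so no p over a list is given. Values of some genes are not reported here.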

Additional observations from a re-analysis of the deposited data

Results flagged for a closer look

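In 2 gene lists the median polysome shift under combo was above 0 in every hBMSC-CM pair of cultures and below 0 in every RPMI pair, with cultures paired by replicate number. For the respiratory complex I genes the pairs had 0.113, 0.509 and 0.299 in hBMSC-CM and -0.253, -0.37 and -0.282 in RPMI, and the median difference between media over the genes was 0.58 on the log2 scale. Relative to all genes the hBMSC-CM direction of complex I does not hold in every pair, since the median of all genes went from -0.139 in vehicle culture 1 to 0.009 in combo culture 1, a larger step than 0.113. The median difference between media was of like size in complexes II to IV (0.62), ATP synthase (0.67) and snoRNA host transcripts (0.70), which did not have opposite signs in every pair. For the mitochondrially encoded transcripts the pairs had 0.509, 1.152 and 0.238 in hBMSC-CM and -0.894, -0.253 and -0.389 in RPMI, and the median difference was 1.03. The difference of these medians was not tested. Gene by gene, 0 genes passed for a difference between media by edgeR or DESeq2, and 4 of 34 complex I and 7 of 13 mitochondrially encoded genes had an unadjusted p under 0.05, beside 453 of all 12939. The share of mitochondrially encoded transcripts in polysome libraries was higher under combo at each number in both media. In RPMI it was 0.333, 0.203 and 0.26% under combo and 0.319, 0.122 and 0.183% under vehicle. The part of this share in these values was not tested.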

How the results depend on the processing

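The median shift stayed between -1.22 and -0.89 over large-subunit and between -1.18 and -0.85 over small-subunit genes under all 18 alternatives. Among the genes taken in by the naming rules, no called gene changed sign. The count of 53 was 3 without the culture block, 115 with the replicate block, 135 by DESeq2, 28 with library size alone, 0 on the 12 libraries only, and 6 to 68 with a culture left out. Chosen after seeing the data, it was 21 on the 24 hBMSC-CM libraries and 231 with the replicate block without everolimus cultures. Combo minus everolimus went from 0 to 427 with the replicate block (212 on the 24 libraries), although replicate numbers did not pair these groups, to 52 by DESeq2, 36 with no filter and 0 to 4 with a culture left out. Combo minus quizartinib went from 0 to 1 with the replicate block (15 without everolimus cultures), 13 by DESeq2 and 3 with no filter. The difference between media reached 1 with no filter and 0 to 1 with a culture left out. The RPMI count of 564 was 2376 with the replicate block (2700 without everolimus cultures), 878 with library size alone and 215 to 839 with a culture left out.

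Among the genes taken in by the naming rules, signs turned only in those that were not called. EIF4EBP1 was -0.0926 by DESeq2, -0.0928 with relative log expression factors, -0.0518 with no filter and -0.11 with the replicate block without everolimus cultures. ATM was -0.0528, -0.0514, -0.0098 and -0.0917 there. With library size alone EIF4EBP2 was 0.0382, EIF4E 0.0544, ATF4 0.003 and CYCS 0.0187, and EIF4E was 0.007 without the culture block. With a culture left out, EIF4EBP1 ran from -0.23 to 0.21, EIF4EBP2 from -0.34 to 0.21, PABPC1 from -0.73 to 0.39, EIF4E from -0.63 to 0.43, ATF4 from -0.38 to 0.18, FLT3 from -0.0467 to 0.55, ATM from -0.40 to 0.61, ATP5MC1 from -0.0912 to 0.56, CYCS from -0.37 to 0.21, NDUFS8 from -0.12 to 0.46, UCP2 from -0.12 to 0.53 and ESRRA from -0.44 to 0.0548. The median of all genes, 0.15, was 0.03 with relative log expression factors and by DESeq2, 0.26 with library size alone and 0 with no filter. The cause of these changes was not tested. With 3 cultures a group, an exact permutation test of a single gene cannot go below p = 0.1.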
